A study of Homo sapiens with 16 samples.

Results

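The binding maps of MITF and of MAFG were compared within cells of the human melanoma line WM164 that overexpressed MAFG (MAFG cells). The members were the 3 anti-MITF and the 3 anti-MAFG CUT&RUN libraries of these cells, 6 of the 16 samples of the series, chosen by cell line and antibody. The series also holds WM164 cells that overexpressed GFP (GFP cells), with the same antibodies and replicate numbers, and for each cell line 1 H3K4me3 library and 1 anti-rabbit IgG control. In CUT&RUN an antibody directs a nuclease to a protein on chromatin in isolated nuclei, and the DNA released around it is sequenced. Here each library came from about 250000 adherent cells, according to the labels, which do not say how the overexpression was made, whether a line was 1 clone or whether replicates were separate cultures. The p-values therefore measure the spread between these libraries, which may be technical. Antibody and factor cannot be told apart, because each factor was profiled with 1 antibody.

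MITF is a basic helix-loop-helix leucine zipper factor that sets the pigment cell identity of melanocytes and many melanomas, and with its relatives TFEB, TFE3 and TFEC it also drives lysosomal genes. It binds E-boxes of the form CACGTG, preferring a T before them (TCACGTG, or TCATGTG in pigment genes). MAFG is a small MAF protein without an activation domain of its own. It binds as a dimer, with itself or with cap'n'collar factors such as NRF2 (gene NFE2L2) and BACH1, at antioxidant response elements that contain TGACNNNGC and at MAF recognition elements that contain TGACTCA. Its best known targets there are genes of glutathione synthesis, thioredoxin and heme breakdown. H3K4me3 is a histone mark of active promoters.

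The sequences below show what these elements look like under the peaks. They are RefSeq promoter windows of assembly GRCh38.p14, from 250 bases before to 50 after an annotated start, 5′ to 3′ on the gene's strand, and capitals mark any match, on either strand, to the MITF elements TCACGTG and TCATGTG, to the plain E-box CACGTG, or to the MAF patterns named above. CACGTG lies within TCACGTG, and TGACTCA can overlap TGACNNNGC, so some runs of capitals hold more than 1 match. The promoters of DHX35, which encodes a putative RNA helicase (chr20:38962094-38962393, + strand), and VPS35L, a component of an endosomal recycling complex (chr16:19555453-19555752, + strand), lay under regions called by anti-MITF only.
DHX35: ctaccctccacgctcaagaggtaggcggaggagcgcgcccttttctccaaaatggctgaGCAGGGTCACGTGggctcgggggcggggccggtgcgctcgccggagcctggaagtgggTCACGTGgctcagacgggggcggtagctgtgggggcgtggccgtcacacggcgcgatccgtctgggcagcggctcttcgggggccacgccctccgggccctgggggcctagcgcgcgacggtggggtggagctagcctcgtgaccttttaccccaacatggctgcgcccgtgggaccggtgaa
VPS35L: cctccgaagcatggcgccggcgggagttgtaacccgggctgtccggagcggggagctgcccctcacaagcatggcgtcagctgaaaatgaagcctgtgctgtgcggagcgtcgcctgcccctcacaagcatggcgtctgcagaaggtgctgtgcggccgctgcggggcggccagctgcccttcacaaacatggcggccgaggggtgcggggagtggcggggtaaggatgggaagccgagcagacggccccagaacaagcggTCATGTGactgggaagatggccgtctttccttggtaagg
The DHX35 window held TCACGTG at positions −185 and −133 from the start, and the VPS35L window held TCATGTG 11 bases after it. The promoters of MRO (chr18:50819967-50820266, − strand) and PRR7 (chr5:177448075-177448374, + strand) lay under regions called by anti-MAFG only. MRO was among the best ranked of these, and PRR7 is shown because its TGACTCAGC satisfies both MAF patterns at 1 place.
MRO: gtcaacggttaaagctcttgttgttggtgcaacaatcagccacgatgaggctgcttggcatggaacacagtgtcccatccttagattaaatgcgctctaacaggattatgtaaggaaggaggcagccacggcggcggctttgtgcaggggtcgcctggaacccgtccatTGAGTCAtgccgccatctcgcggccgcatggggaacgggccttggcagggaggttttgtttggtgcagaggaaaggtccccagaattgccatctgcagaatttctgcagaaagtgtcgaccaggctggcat
PRR7: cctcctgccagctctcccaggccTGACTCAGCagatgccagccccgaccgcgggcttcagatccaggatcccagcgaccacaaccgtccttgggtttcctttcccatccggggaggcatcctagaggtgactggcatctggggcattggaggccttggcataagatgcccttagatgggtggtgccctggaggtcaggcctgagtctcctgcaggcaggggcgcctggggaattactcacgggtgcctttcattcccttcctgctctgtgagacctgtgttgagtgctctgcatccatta
An annotated promoter window of ALK, a receptor tyrosine kinase gene (chr2:29223774-29224073, − strand), lay under a region called in all 6 libraries. It held TCACGTG and TGACNNNGC, as the DHX35 window did. Whether this start is the main one of the gene was not examined.
ALK: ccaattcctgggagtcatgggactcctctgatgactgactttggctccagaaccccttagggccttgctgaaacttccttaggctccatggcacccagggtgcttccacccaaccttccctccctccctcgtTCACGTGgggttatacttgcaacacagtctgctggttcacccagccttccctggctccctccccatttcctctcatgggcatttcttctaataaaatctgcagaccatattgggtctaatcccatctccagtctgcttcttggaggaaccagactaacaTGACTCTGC
Each of these windows holds a match inside the called region. They were chosen for that after the matches were seen, so they are illustrations of the classes and not typical members.

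The 6 lists gave 6720 merged regions, on chromosomes 1 to 22, X and Y. Anti-MITF called 845 of them in 3 of 3 libraries with anti-MAFG in 0 of 3, or 12.6% of all merged regions, and these are called MITF-specific. Anti-MAFG called 727 in 3 of 3 libraries with anti-MITF in 0 of 3, or 10.8%, called MAFG-specific. All 6 libraries called 122 regions, or 1.82%, called shared. The other 5026 regions fell between these classes, mostly because a single library had called them, as 45.9% of all regions had. Of the 6720 regions, 5914 (88.0%) were called by 1 antibody only, in any number of its libraries. Absence from a list means that no peak passed the authors' threshold, not that the factor was absent.

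**Figure D1:**
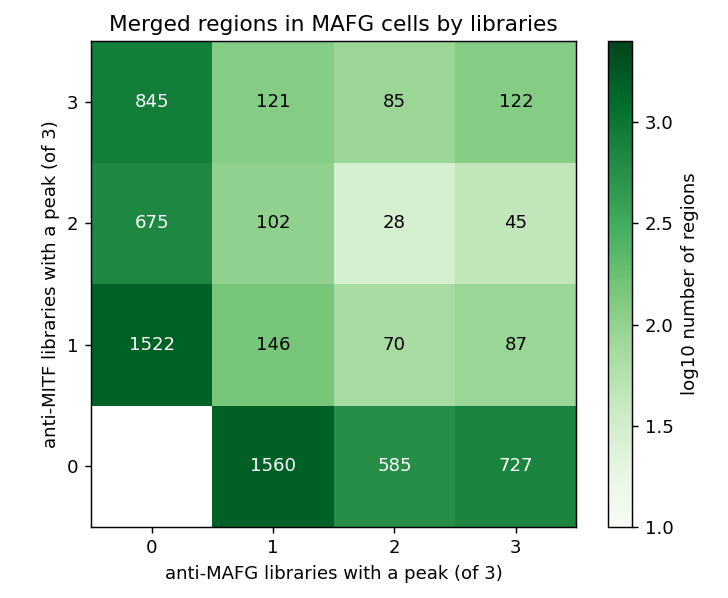
Number of merged regions by how many anti-MITF libraries (vertical axis, 0 to 3) and anti-MAFG libraries (horizontal axis, 0 to 3) had a peak there, with colour on a log10 scale. The corners on the axes hold 845 MITF-specific and 727 MAFG-specific regions, against 122 in the corner called in all 6 libraries.

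Libraries of the same antibody shared far more sequence than libraries of different antibodies. A pair of anti-MITF libraries shared 37.4% to 39.5% of the base pairs in either list, and a pair of anti-MAFG libraries 33.3% to 43.1%. The 9 pairs with 1 library of each antibody shared 5.39% to 6.36%. The within-antibody and between-antibody ranges did not overlap. Counted by peaks, 12.8% ± 0.473 of anti-MITF peaks overlapped a consensus region of anti-MAFG (a region called in at least 2 of 3 libraries) and 14.9% ± 0.785 of anti-MAFG peaks overlapped one of anti-MITF (SD, n = 3 libraries each).

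The lists were of similar size. Anti-MITF gave 2491, 2116 and 2495 peaks in replicates 1 to 3 and anti-MAFG 1836, 1849 and 2818. The groups overlapped (log2 difference 0.15 ± 0.22 SE, two-sided exact permutation p = 0.4, n = 3 each), and the third anti-MAFG library had the most peaks of the 6. Its peaks were also the shortest, with a median width of 501 bp against 608 and 636 bp in the other anti-MAFG libraries and 543.5 to 565 bp for anti-MITF. Median fold enrichment was 6.57 to 6.77 for anti-MITF and 6.83 to 7.19 for anti-MAFG, ranges that did not overlap (difference −0.34, exact permutation p = 0.1, the smallest that 3 against 3 libraries allow). With the same number of peaks taken from each list the difference was −0.16 and the exact permutation p was 1. Depth, recovered from the deposited values, was 1.39 to 1.73 fragments per kb for anti-MITF and 1.23 to 1.61 for anti-MAFG, so the depths overlapped. The summits of the median peak held 17 to 25 fragments per library.

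Anti-MITF peaks lay at active promoters much more often than anti-MAFG peaks. The share of peaks over an H3K4me3 peak of the same cells was 34.1%, 34.6% and 31.6% in the anti-MITF libraries and 13%, 12.9% and 12.1% in the anti-MAFG libraries. All 3 anti-MITF libraries were above all 3 anti-MAFG libraries, by 20.8 percentage points on average (means 33.4% ± 1.64 and 12.7% ± 0.505, SD, n = 3 each, two-sided exact permutation p = 0.1, Benjamini-Hochberg adjusted p = 0.133 over 8 measures). The same order held for summits within 1000 bp of the start of a protein-coding gene, with 26.4% ± 1.42 for anti-MITF and 9.06% ± 0.447 for anti-MAFG (SD, n = 3 each, exact permutation p = 0.1). Summits more than 5000 bp from any start, called distal, made up 65.3% ± 0.944 of anti-MITF peaks and 83.5% ± 0.928 of anti-MAFG peaks (SD, n = 3 each, exact permutation p = 0.1). The difference is thus several times the spread between libraries, although the design cannot reach a p of 0.05. H3K4me3 had 1 library, so its own replicate error is unknown. The H3K4me3 list itself held 11580 peaks, of which 80.2% had a summit within 1000 bp of a start.

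**Figure D2:**
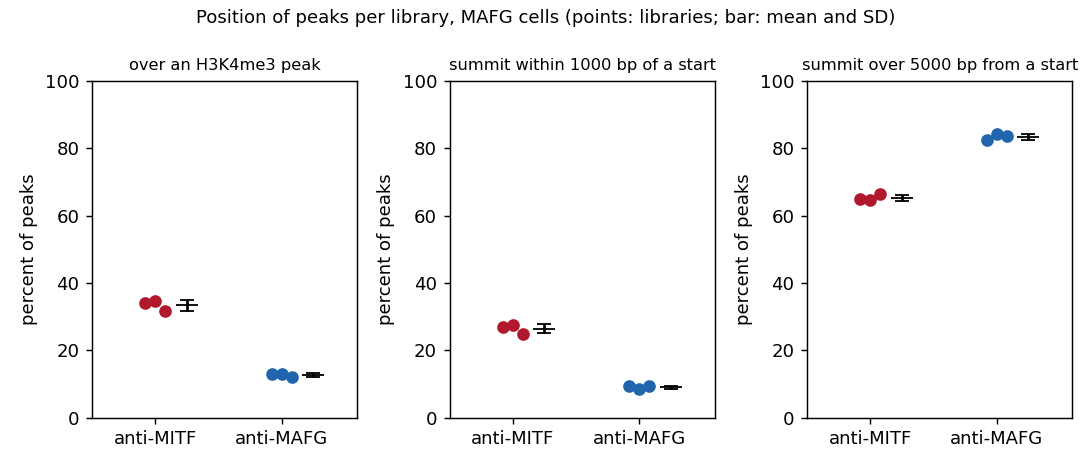
Percent of each library's peaks over an H3K4me3 peak, with the summit within 1000 bp of a protein-coding start, and with the summit over 5000 bp from one (vertical axes, 0 to 100%). Points are the 3 libraries per antibody and the bar is their mean with SD. Anti-MITF libraries sit between 31.6% and 34.6% for H3K4me3 and anti-MAFG libraries between 12.1% and 13%.

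The specific regions showed the same contrast. Of 845 MITF-specific regions, 329 (38.9%, exact binomial 95% interval 35.6% to 42.3%) overlapped an H3K4me3 peak, 261 (30.9%) had their highest summit within 1000 bp of a start and 512 (60.6%) were distal. Of 727 MAFG-specific regions, 82 (11.3%, 9.07% to 13.8%) overlapped H3K4me3, 57 (7.84%) were at a promoter and 614 (84.5%) were distal. The intervals cover counting error only. Within promoters H3K4me3 was common for both, at 244 of 261 MITF-specific and 45 of 57 MAFG-specific promoter regions. Away from promoters it was rare for both, at 40 of 512 distal MITF-specific regions (7.81%) and 13 of 614 distal MAFG-specific regions (2.12%).

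The H3K4me3 share was nearly the same whatever the number of libraries of 1 antibody that had called a region. Regions called by anti-MITF alone overlapped H3K4me3 in 36.1% of cases when 1 library had called them, 39.4% with 2 and 38.9% with 3. For anti-MAFG alone the shares were 11.1%, 11.3% and 11.3%. Regions that both antibodies called were closer to the anti-MAFG pattern: of the 122 shared regions 22 (18.0%, 11.7% to 26.0%) overlapped H3K4me3, 12 were at a promoter and 100 (82.0%) were distal. Regions called in 3 anti-MITF libraries and 1 anti-MAFG library were between, at 20.7% of 121.

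Within each list the peaks were ranked by the authors' fold enrichment and cut into deciles. In the top decile 56.0% of anti-MITF peaks (52.6% to 58.6% over the 3 libraries) lay in MITF-specific regions, and in the lowest decile 28.1% did. For anti-MAFG the share in MAFG-specific regions was 65.7% (61.0% to 69.9%) in the top decile and 22.9% in the lowest. The classes ask for a call in all 3 libraries, so this gradient is not independent of rank. The share over H3K4me3 does not use the classes: it was lowest at the top of the anti-MITF lists, 28.7% (28.4% to 29.0%) in decile 1, and 40.0% (36.8% to 42.2%) in decile 10, with no overlap between libraries. In the anti-MAFG lists it was 14.1% (12.1% to 15.3%) in decile 1 and 13.6% (13.1% to 14.7%) in decile 10. Anti-MITF peaks of the highest fold enrichment were therefore less often at H3K4me3 than those of the lowest. In the anti-MAFG lists the ranges of deciles 1 and 10 overlapped. Fold enrichment also falls as local background rises, and the shares by pileup were not examined. Anti-MITF peaks of the top decile also had a call of the other antibody more often than those of the lowest, 36.1% against 17.7%. For anti-MAFG the shares were 28.9% (26.6% to 31.1%) and 22.8% (19.7% to 27.7%), and the libraries overlapped.

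**Figure D3:**
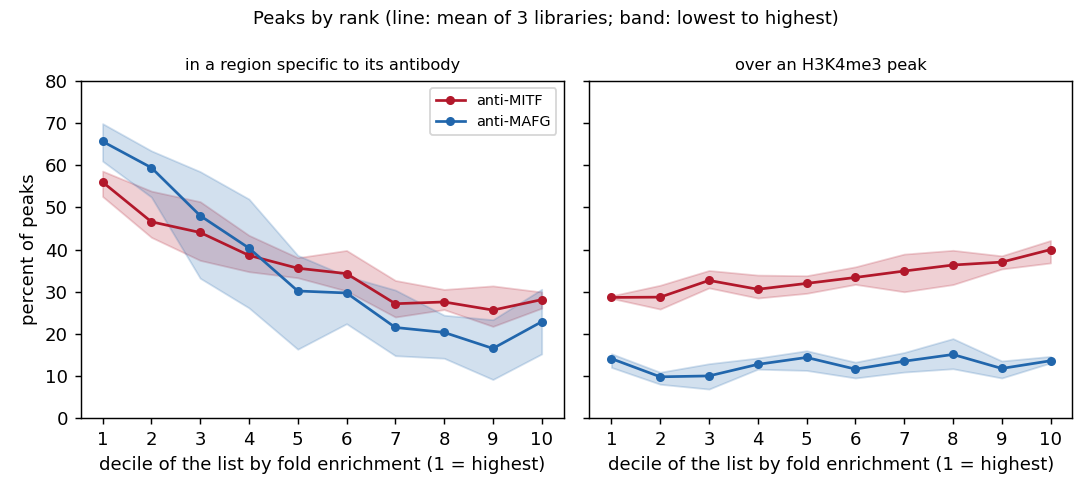
Percent of peaks in a region specific to their antibody (left) and over an H3K4me3 peak (right) for each decile of a list by fold enrichment, 1 being the highest. Lines are means of 3 libraries and bands run from the lowest to the highest. The H3K4me3 share of anti-MITF peaks goes from 28.7% in decile 1 to 40.0% in decile 10, and that of anti-MAFG peaks stays between 9.83% and 15.1%.

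The best ranked MITF-specific region covered the promoter of FLCN, folliculin, which controls the nuclear entry of MITF and its relatives through the lysosomal Rag GTPases. It spanned chr17:17235781-17238181, with a summit 200 bp from the start and an H3K4me3 peak. Fold enrichment was 19.2, 20.7 and 24.6 in the anti-MITF libraries, from 45, 55 and 53 fragments, and no anti-MAFG library of either cell line called it. The 4 next best MITF-specific promoters were those of DHX35, DDB2, which recognises ultraviolet damage in DNA, VPS18, a subunit of lysosomal tethering complexes, and TNFRSF14, a cell surface receptor. Their fold enrichment ran from 13.1 to 23.7 over all libraries, and all 4 carried H3K4me3. DDB2 varied most, with 23.7, 13.8 and 17.8 in replicates 1 to 3.

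The best distal MITF-specific region lay 25036 bp from the start of IER3, a stress response gene, at chr6:30768994-30770029, with fold enrichment of 18.8, 15.7 and 18.3. The next were nearest to EMP1, FTCD, PTPN1 and IL16, between 11681 and 69566 bp from a start. The FTCD region lay within that gene, and the PTPN1 and EMP1 regions lay in no protein-coding gene. The last of the 10 best lay within ARRB1, which encodes an arrestin that dampens signalling by G protein-coupled receptors. None of these 6 distal regions overlapped H3K4me3 in MAFG cells. The IER3 region overlapped an H3K4me3 peak of GFP cells, and the others did not. Nearest genes are given as positions only, since the lists do not say which gene a distal region acts on.

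Among the 10 best MAFG-specific regions, 8 were distal, and none of the 10 overlapped H3K4me3. The best lay within XPNPEP3 at chr22:40898432-40899656, 36915 bp from the nearest start, that of DNAJB7, with fold enrichment of 29.3, 25.3 and 31.2 from 101, 69 and 93 fragments. The second lay within LAMA2, which encodes a laminin chain, at chr6:129500590-129502586, with 28.1, 23.5 and 32.8. Replicate 2 was the lowest at both. Others lay within FHIT and CD276, or between genes nearest to PRICKLE2, CEBPB, LRRC32 and ANAPC1. The FHIT and PRICKLE2 regions lie in a stretch of chromosome 3 with raised local background, described further on.

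The 5 best MAFG-specific promoters belonged to MAP1LC3B2, of the LC3 family of autophagosome proteins, MRO, RABL3, SLC7A8, an amino acid transporter, and PCNP. At MAP1LC3B2 (chr12:116559159-116560599) the fold enrichment was 25, 18.3 and 31.1, and at MRO (chr18:50819080-50820126) 20.5, 18.8 and 31.6. Neither promoter overlapped H3K4me3, nor did SLC7A8, whereas RABL3 and PCNP did. Replicate 3 was highest at 4 of the 5 and lowest at RABL3, where the values were 22.2, 25.2 and 15.6.

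The 122 shared regions were wide, with a median of 1404.5 bp against 903 bp for MITF-specific and 1023 bp for MAFG-specific regions. The 10 best were 9 distal regions and 1 region 3882 bp from the start of CLDN12, a claudin gene, and none overlapped H3K4me3. The best, at chr20:25309437-25311154 within ABHD12, had pileups scaled to a common depth of 32.5, 29.8 and 35.4 with anti-MITF and 20.3, 22.3 and 27.9 with anti-MAFG, so it was higher with anti-MITF in every library. The region within SLX4IP went the other way, with scaled pileups of 17.0, 16.3 and 18.5 against 29.0, 28.7 and 45.4. At the region near CMAS, at chr12:22100945-22102824, the antibodies overlapped, with 19.6, 19.0 and 14.6 against 19.4, 22.3 and 31.5.

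Where both antibodies had a peak, their summits were farther apart than those of replicates. The median distance between summits at the 122 shared regions was 103 to 239.5 bp over the 9 pairs with 1 library of each antibody. It was 43 to 73.5 bp over the 3 pairs of anti-MITF libraries and 54 to 89.5 bp over the 3 anti-MAFG pairs, so the ranges did not overlap. The median over pairs between antibodies exceeded that over pairs within an antibody by 50.75 bp, and by 43 to 96 bp with 1 library left out, the highest being without anti-MAFG replicate 1. The pairs share libraries and are not independent, and no test was made. By fold enrichment, the order of the shared regions was similar within an antibody but hardly between antibodies. The Spearman correlation across regions was 0.71 to 0.80 between anti-MITF libraries, 0.54 to 0.71 between anti-MAFG libraries and 0.02 to 0.17 between antibodies. On scaled pileups averaged per antibody it was 0.57 between antibodies, so the order by pileup was partly shared. That value is from means of 3 libraries, not single pairs, and none is given within an antibody. Pileups are not divided by local background, which was raised around 25 of the 122 regions, as described below. Its part in this value was not tested. These correlations are across 122 regions of the same libraries and are given as a description. On the same scaled pileups 59 shared regions were higher on average with anti-MITF and 63 with anti-MAFG, and the 3 values of each antibody did not overlap at 23 and 28 of them.

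Chromosome 3 held 26 of the 122 shared regions (21.3%), against 7.95% of all merged regions, and most of its shared regions lay where local background was high. The local background recovered from each peak was divided by the median over the peaks of its library, and the 6 libraries were pooled. In 13 of the 493 stretches of 4 Mb that held at least 10 peaks, the median of this ratio was at least 3. The 4 stretches from 60 to 76 Mb of chromosome 3, which include the MITF gene, had a relative background of 4.08 to 5.52. These 13 stretches held 25 of the 122 shared regions (20.5%), 53 of the 845 MITF-specific (6.27%) and 27 of the 727 MAFG-specific regions (3.71%), against 4.05% of all merged regions. The count of shared regions also moved most with the calling rules, to 81 with the same number of peaks in each list, 59 with a −log10 q of at least 5 and 47 with windows of 200 bp around the summits in place of the peaks. Without the 13 stretches 97 shared, 792 MITF-specific and 700 MAFG-specific regions remained. What raises the background there was not tested.

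Most of the specific regions were also called in GFP cells, which did not enter the classes. Anti-MITF libraries of GFP cells called 99.0% ± 0.493 of the MITF-specific regions and anti-MAFG libraries 58.4% ± 13.7 (SD, n = 3 each, difference 40.6 points, two-sided exact permutation p = 0.1). For MAFG-specific regions the order was the other way, 34.5% ± 2.0 with anti-MITF and 70.3% ± 9.39 with anti-MAFG (difference −35.8 points, exact permutation p = 0.1). In both classes the 3 libraries of one antibody stood clear of the 3 of the other. Anti-MAFG libraries of GFP cells called 84.5% of MAFG-specific regions at least once, against 74.8% of all merged regions. In 3 of 3 libraries they called 53.4% against 40.4%. Anti-MITF libraries called 100% of MITF-specific regions at least once, against 76.4% of all merged regions. In 3 of 3 they called 97.8% against 55.6%. The third anti-MAFG library of GFP cells, which had 14879 peaks against 26221 and 23409, called the fewest in all 3 classes, 43.1% of MITF-specific regions against 69.6% and 62.6%. GFP-cell lists held 14879 to 26221 peaks, against 1836 to 2818 in MAFG cells. Of the 845 MITF-specific regions, 643 (76.1%) had a peak in at least 1 anti-MAFG library of GFP cells, close to the 74.8% of all 6720 merged regions. Of the 727 MAFG-specific regions 344 (47.3%) had one in at least 1 anti-MITF library, below the 76.4% of all merged regions. Regions with no peak of either antibody in GFP cells numbered 0 of 845, 109 of 727 and 1 of 122 shared. Over all 6720 merged regions there were 685.

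**Figure D4:**
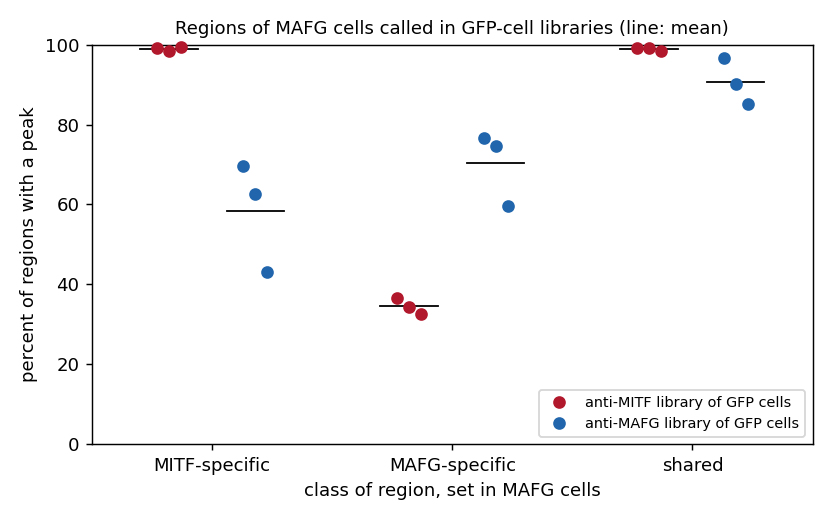
Percent of each class of regions, set in MAFG cells, that had a peak in each GFP-cell library (vertical axis). Points are libraries, red for anti-MITF and blue for anti-MAFG, and lines are means of 3. MITF-specific regions were called by 99.0% on average with anti-MITF and 58.4% with anti-MAFG, MAFG-specific regions by 34.5% and 70.3%.

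The position difference was present in GFP cells too, and was smaller. There 40.6% ± 0.680 of anti-MITF peaks and 26.0% ± 0.579 of anti-MAFG peaks overlapped the H3K4me3 list of their own line (SD, n = 3 each). The gap of 14.6 points compares with 20.8 points in MAFG cells. The lists differ in length between the lines, and the difference between these 2 contrasts was not tested.

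Letters of the binding elements differed between the promoters of the classes. TCACGTG was in 25.9% of the 266 RefSeq promoter windows under MITF-specific regions, 3.13% of the 64 under MAFG-specific regions and 4.43% of all 22077 windows of protein-coding genes. TCATGTG was in 9.02%, 1.56% and 2.32% in the same order. TGACTCA was in 18.8% of windows under MAFG-specific regions, 4.14% under MITF-specific regions and 4.02% of all. The looser TGACNNNGC differed little, at 20.3% and 18.8% against 13.8%. Among windows at H3K4me3 peaks TCACGTG was in 5.95% and TGACTCA in 2.47%. Of the 11 windows under shared regions 3 held TCACGTG, none held TGACTCA and 4 held TGACNNNGC. A match is a description of letters and not a site. The MAF patterns are parts of longer elements, whose other letters were not searched. Which factors bind these letters was not tested.

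Few of the matches lay within 100 bp of a summit, where the windows also held few bases. Of 99 TCACGTG matches under MITF-specific regions 79 lay inside the called region, at a median of 220 bp from the highest summit, and 5 (5.05%) lay within 100 bp of it, against 12.1% of all bases in these windows. Windows of alternative starts can overlap, and a match in more than 1 of them was counted once here. CACGTG had 94 matches there, 70 of them inside, so the TCACGTG matches are not all separate elements. An E-box that reads TCACGTG on both strands counts more than once. Of 11 TGACTCA matches under MAFG-specific regions 10 lay inside the region and 1 within 100 bp, with a median of 179 bp. Of all bases in these windows 15.9% lay within 100 bp of a summit, and 11 matches are too few to compare with that. The windows end 50 bases after a start, and the summits over the 266 windows of MITF-specific regions lay at a median of 260.5 bp from the window's start site, so the windows hold few bases near a summit. Distal regions, which are most of each class, were not searched for letters.

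Genes of antioxidant defence and of pigment cells and lysosomes were read against the consensus regions, with a region counted for a gene within 5000 bp of its start. Anti-MAFG had a consensus region at 10 of 41 genes in 5 antioxidant lists (24.4%), where it had one at 1.57% of 20033 protein-coding genes. Anti-MITF had one at 5 of the 41 (12.2%), against 4.11% of all genes. In 6 lists of pigment and lysosome genes the order was reversed, with anti-MITF at 21 of 62 genes (33.9%) and anti-MAFG at 1 (1.61%), MITF itself. With the gene body and 5000 bp on either side as the window, anti-MITF had a consensus region at 25 of the 62 (7.18% of all genes) and anti-MAFG at 7 (4.54% of all genes), adding EDNRB, PPARGC1A, PSAP, RAB38, TYR and ZEB2. These lists were drawn up knowing what the factors bind and with earlier results of these data at hand, so the counts describe the lists and are not independent evidence. A consensus region can also lie near the start of a neighbouring gene. In each of these lists most genes had an H3K4me3 peak at a start, against 53% of all protein-coding genes. The shares of all genes were not matched for this.

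**Figure D5:**
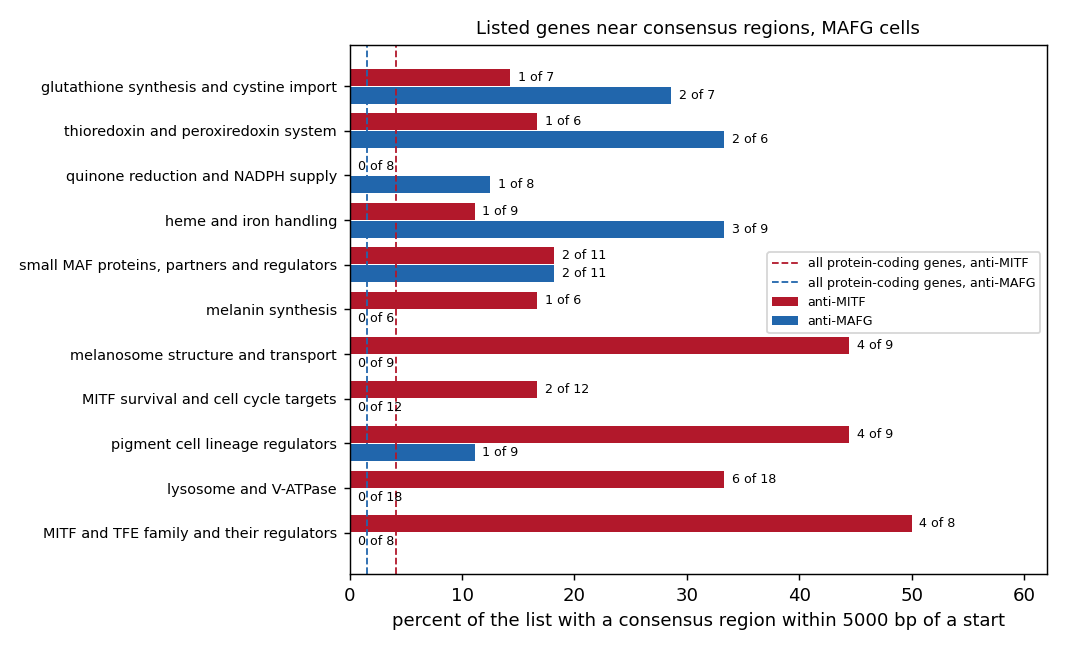
Percent of each gene list with a consensus region (at least 2 of 3 libraries) within 5000 bp of a start, for anti-MITF in red and anti-MAFG in blue, with the counts beside the bars. Dashed lines are the shares of all protein-coding genes, 4.11% for anti-MITF and 1.57% for anti-MAFG. Anti-MAFG bars are above 0 in all 5 antioxidant lists and in 1 of the 6 pigment and lysosome lists.

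In glutathione synthesis and cystine import, anti-MAFG had MAFG-specific regions at GCLC, the catalytic subunit of the enzyme that makes the glutathione precursor, and at SLC7A11, the cystine importer. Summit fragments were 27, 16 and 22 at GCLC, 3232 bp from the start, and 32, 26 and 30 at SLC7A11. Anti-MITF called neither, but had a MITF-specific region at SLC3A2, the heavy chain that pairs with SLC7A11, with 32, 25 and 24 fragments and a summit 288 bp from the start. In MAFG cells the 2 chains of this transporter were thus called by different antibodies. In GFP cells 2 anti-MITF and 3 anti-MAFG libraries called the SLC7A11 region, and 2 and 1 called the GCLC region. The SLC3A2 region was called there by 3 anti-MITF and 0 anti-MAFG libraries. No consensus region lay at GCLM, GSR or GSS.

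Of the genes of heme and iron handling, HMOX1, which breaks heme down, had a MAFG-specific region at chr22:35374286-35377702, 4257 bp from the nearer end of the gene, with fold enrichment of 12.5, 12 and 14.2 from 73, 55 and 61 fragments. It did not overlap H3K4me3. In GFP cells 3 anti-MITF and 2 anti-MAFG libraries called this HMOX1 region. ABCB6, a porphyrin transporter, had a MAFG-specific region 689 bp from its start with 43, 27 and 33 fragments. All 3 libraries of each antibody called the ABCB6 region in GFP cells. At FTH1, the ferritin heavy chain, all 6 libraries had a peak 4760 bp from the nearer gene end, with scaled pileups of 18.6, 11.3 and 14.6 with anti-MITF and 16.9, 8.28 and 14.4 with anti-MAFG, which overlapped.

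NQO1, a quinone reductase, had a MAFG-specific region 250 bp from its start (chr16:69726646-69727388), with 53, 33 and 75 fragments. Its fold enrichment of 6.66, 6.53 and 13.2 was highest in replicate 3. All 3 libraries of each antibody called the NQO1 region in GFP cells. In the thioredoxin system, TXNRD1 had a region called by 3 anti-MAFG and 2 anti-MITF libraries, with scaled pileups of 16, 16.6 and 10.8 for anti-MAFG against 8.26 and 7.86 for anti-MITF. TXN itself was called by 2 of 3 anti-MAFG libraries. PRDX1, SRXN1 and TALDO1, also known NRF2 targets, had no consensus region of either antibody near a start.

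Among MAFG's own relatives and regulators, SQSTM1, the autophagy receptor p62 that binds the NRF2 inhibitor KEAP1, was called in all 6 libraries, with scaled pileups of 21.3, 15.9 and 17.5 for anti-MAFG and 20.7, 19.9 and 18.0 for anti-MITF, which overlapped. BACH2, a partner of small MAF proteins, had 2 MAFG-specific regions in its body, the stronger with 14.8, 14.8 and 11.6, at 10796 bp from a start. MAFF, another small MAF, was called by 3 anti-MITF libraries and 1 anti-MAFG library at its promoter. OSGIN1 was called by 2 anti-MAFG libraries and 1 anti-MITF library. MAFG, NFE2L2, KEAP1 and BACH1 had no consensus region within 5000 bp of a start.

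Of 6 melanin synthesis genes, TYR, tyrosinase, had a MITF-specific region 1674 bp from its start, with 33, 36 and 23 fragments. A MAFG-specific region, with 23, 16 and 12 fragments, lay in its body 71756 bp from the start, and no GFP-cell library of either antibody called it. DCT, TYRP1, SLC24A5, SLC45A2 and OCA2 had no consensus region near a start. Of the 9 melanosome genes, RAB27A, a small GTPase that tethers melanosomes, and MLPH, its linker to myosin, had MITF-specific regions, and GPNMB and MLANA had consensus regions of anti-MITF. At MLPH the fragments were 32, 42 and 34, and at RAB27A 17, 17 and 14. RAB38 had a MITF-specific region in its body with fold enrichment of 13.9, 11.6 and 15.9, and a separate MAFG-specific region with 7.52, 8.14 and 13.1.

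Among lineage regulators, MC1R, the melanocortin receptor, had a MITF-specific region 339 bp from its start with 15, 21 and 20 fragments, and SOX10 and EDNRB had consensus regions of anti-MITF in 2 of 3 libraries. In the cell cycle and survival list CDK4 had a MITF-specific region 115 bp from its start with 23, 19 and 27 fragments, and BIRC7, an inhibitor of apoptosis, one with 31, 30 and 26. PPARGC1A, a coactivator of mitochondrial genes, had 2 MITF-specific regions in its body. BCL2, CCND1, HIF1A and TBX2 had no consensus region near a start.

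The MITF gene itself carried regions of every class. A MAFG-specific region at chr3:69740356-69742046, over an H3K4me3 peak and 1947 bp from a start, held 104, 69 and 119 fragments with anti-MAFG. Its fold enrichment was low for that many fragments, 3.67, 3.46 and 5.67 beside the raised local background of this stretch. Further along, 3 regions were shared by all 6 libraries. A MITF-specific region at chr3:69860973-69862200, 75195 bp from a start, held 52, 49 and 38 fragments. All of these regions were called in 3 of 3 libraries of both antibodies in GFP cells.

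Anti-MITF had a consensus region near a start at 6 of 18 lysosome and V-ATPase genes and 4 of 8 genes of the MITF and TFE family and its regulators, and anti-MAFG at none of either list. The 6 were the proton pump genes ATP6AP1, ATP6V0E1, ATP6V1A, ATP6V1B2 and ATP6V1E1, and PSAP, which encodes the precursor of sphingolipid activators. ATP6V0E1 had 48, 40 and 41 fragments, and 1 anti-MAFG library also called it, with 19. Of the family and its regulators, FLCN and RRAGC had MITF-specific regions and FNIP1, the partner of folliculin, and RRAGD had consensus regions of anti-MITF. RRAGC and RRAGD encode the Rag GTPases on which folliculin acts. At RRAGC the fragments were 40, 37 and 38, which differed little between replicates.

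The label of the cells was read from H3K4me3. Of 8 pigment cell markers, 7 had an H3K4me3 peak within 1000 bp of a start in MAFG cells, TYRP1 being without one, where 53% of all protein-coding genes had one. None of 4 keratinocyte markers and none of 4 immune cell markers had one.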

How the data were processed

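CUT&RUN peak lists of 14 libraries were used: the 6 anti-MITF and anti-MAFG libraries of MAFG cells for the comparison, the 6 of GFP cells and both H3K4me3 lists for description. The 2 IgG samples are not analysed here. Per the submitters' processing notes, the tools were cutadapt 1.8.1, Bowtie2 2.4.1, MACS2 2.1.1.20160309, ChIPseeker 1.32.1 and deepTools, with build GRCh38 (hg38). Their order and the control used in calling are not given in the sources used here. Each deposited list holds the peaks of 1 library, so the authors called peaks per sample. The deposited columns give a fold enrichment (a linear ratio), p-values and q-values as −log10, and a display score, which was not used. The lowest −log10 q in the lists used was 2.00.

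Peaks of the 6 lists that overlapped or touched were merged, and an overlap of at least 1 bp placed a library at a region. The position of a region is that of its summit in the library with the highest fold enrichment. Rank is by the authors' fold enrichment within a list. Start sites are those of the RefSeq promoter table (GRCh38.p14), with 1 or more starts for 15842 of 20033 protein-coding genes. For the other 4191, which include 29 of the 112 listed genes, both ends of the gene were used, since their strand is not in the tables used. Of the listed genes 112 of 112 were matched by symbol. The lists hold no read counts. The fragments at each summit, the local background and 1 scale per library were solved from fold = (pileup + 1) / (background + 1) and a Poisson tail for p. With a tolerance of 0.003 this matched 100% of peaks in each of the 6 libraries, but between 12.3% and 15.2% with the scale multiplied by 0.9. The formula is inferred and not stated by the authors, and so are the depths of 1.23 to 1.73 fragments per kb. Scaled pileups are the fragments times the library's scale. On simulated lists for this comparison, with 11747 merged regions, 200 of 200 planted regions per class were found, and at least 99.86% of simulated fragments were recovered. Planted regions were set in every library of their class, and the fragments were simulated from the same formula. The simulation therefore checks the code and not the classes or the formula.

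Anti-MITF and anti-MAFG libraries were compared, 3 against 3, by exact two-sided permutation (20 assignments, smallest p 0.1) with Benjamini-Hochberg adjustment over 8 measures. Replicate numbers were not used as pairs. Named regions are the 10 of each class with the best mean rank, the 5 best promoter and distal ones of each specific class, and the listed genes with a consensus region. ALK, PRR7 and VPS35L fall outside this rule and were chosen after their values were seen, as were genes named for having no region. Members, lists and tests were chosen with earlier results of these data known. Alternatives covered the q threshold, equal list lengths, summit windows, the number of libraries asked for and each library left out. Analyses used Python 3.11.15, numpy 2.4.6, pandas 2.3.3 and scipy 1.17.1.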

Additional observations from a re-analysis of the deposited data

Results flagged for a closer look

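The H3K4me3 list of MAFG cells held 2 peaks outside chromosomes 1 to 22, X and Y, on a sequence that the list names as a virus, while the 6 anti-MITF and anti-MAFG lists of these cells held 0 peaks outside those chromosomes. These peaks entered no comparison.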

How the results depend on the processing

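The order of the antibodies in H3K4me3 and promoter shares, the class shares at H3K4me3 and the GFP-cell calls kept their direction under all alternatives run. No value run under an alternative changed sign. With 1836 peaks in each list there were 81 shared regions, the difference in median fold enrichment was −0.16 (exact permutation p = 1) and 13.3% of anti-MAFG peaks met a consensus region of anti-MITF. With a −log10 q of at least 5 there were 516 MITF-specific and 59 shared regions, and the co-occupied shares were 10.9% of anti-MITF and 12.1% of anti-MAFG peaks. Windows of 200 bp around the summits gave 609 MITF-specific, 488 MAFG-specific and 47 shared regions and shares of 7.17% and 8.88%. Asking for 2 of 3 libraries gave 1520 MITF-specific and 1312 MAFG-specific regions. Without the stretches of high background, an alternative chosen after seeing the data, the shares were 11.9% and 13.6%. The gene body window gave 7 pigment and lysosome genes for anti-MAFG in place of 1. The cause of these moves was not tested, apart from the fewer peaks or looser rule of each setting. Leaving out 1 library at a time gave 863 to 1105 MITF-specific, 748 to 983 MAFG-specific and 134 to 160 shared regions, H3K4me3 differences of 20.2 to 21.7 points, and co-occupied shares of 8.85% to 13% for anti-MITF and 11.6% to 15.3% for anti-MAFG peaks.

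Replicate numbers are shared by the groups, but same-numbered libraries did not deviate together (correlations over regions of 0.0086, −0.026 and −0.019). With the replicate block the H3K4me3 difference stayed 20.8 points with an exact permutation p of 0.25, the smallest that 8 assignments allow. Neither design can reach 0.05, so these p-values say nothing about stability. The depth of a summit peak, a median of 17 to 25 fragments, limits the fold enrichment of a single region, and absence of a peak is not absence of binding.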
